A study of Mus musculus with 6 samples.

Results

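The 48 genes described here encode proteins of the kinetochore, the mitotic spindle and condensin, with the kinases, the ubiquitin ligase cofactors and the transcription factor that drive mitosis. They were chosen as a list of gene symbols and found in the deposited table of 24906 Ensembl gene identifiers through the GENCODE M21 mouse annotation, and all 48 were present. RNA was measured in splenocytes, 1 library per mouse, and all mice were C57BL/6J and between 12 and 16 months old. The D3TA group held 3 mice of a line with a CRISPR/Cas9-made knock-in that replaces threonine 283 of cyclin D3 (gene Ccnd3) with alanine, written D3T283A in the series record. The WT group held 3 age-matched wild-type mice. The knock-in line was bred and kept heterozygous, and the record describes advanced myeloproliferative neoplasm at this age, an overproduction of myeloid blood cells. The labels name the tissue as spleen and the material as splenocytes, and no sorting is described. The zygosity of each mouse is not given in the sources used here.

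Cells enter mitosis with condensed chromosomes, whose centromeres carry nucleosomes with the histone variant CENP-A. The inner kinetochore is built on these nucleosomes and the outer kinetochore holds the spindle microtubules, while the spindle checkpoint delays anaphase until every kinetochore is attached. The anaphase-promoting complex then marks securin and cyclin B for destruction, separase cuts cohesin, and the cell divides. Most of these genes are transcribed in G2 and M phase under the DREAM, B-MYB and FOXM1 regulators, so in a tissue their transcripts mark dividing cells. In the adult mouse spleen such cells are erythroid and myeloid precursors of the red pulp and germinal centre B cells.

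Transcripts of the mitotic genes were mostly more abundant in D3TA than in WT spleens, although none passed the main test after adjustment. In bulk tissue a different number of dividing cells and a different amount of RNA per cell cannot be told apart. The log2 difference is the D3TA mean minus the WT mean of log2(normalized count + 1). It lay above 0 for 47 of 48 genes, where 54.5% of the 15564 genes tested lay above 0. All 48 passed the filter on low values, with the lowest value of any library at 29.1 normalized counts. The median log2 difference of the 48 was 1.30 and the mean 1.35, against a median of 0.06 and a mean of 0.15 over all genes tested. The smallest was -0.17 (Pttg1) and the largest 2.41 (Cenpe), 39 of the 48 were at least 2-fold higher and 4 were at least 4-fold higher. The shares of all genes past these folds were not computed. At an unadjusted limma p under 0.05, 42 of the 48 were higher and 0 lower, where 6.08% of all genes tested were higher and 3.83% lower. In 34 of the 48 each of the 3 D3TA values lay above each of the 3 WT values, where 8.18% of all genes tested had this. In 0 of the 48 they lay below, where 6.84% of all did.

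With adjustment over all 15564 genes, 0 of the 48 passed a limma adjusted p under 0.05, as did 0% of all genes in either direction, and their adjusted p ran between 0.217 and 0.903. On whole reads recovered from the values, edgeR's quasi-likelihood test also called 0 of the 48 (0% of all genes), with 42 at an unadjusted p under 0.05 where 6.37% of all genes were higher, and limma-voom called 0 (0% of all genes). DESeq2 called 23 of the 48 as higher at an adjusted p under 0.05, where it called 1.83% of genes higher and 0.705% lower, and 0 of the 48 were lower. Without D3TA-1, 26 genes were higher at an unadjusted p under 0.05 (2.81% of all genes). Without both D3TA-1 and WT-2, 15 were (2.46% of all genes). Without D3TA-3, 16 passed the limma adjusted threshold (1.46% of all genes). 

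The 3 D3TA libraries lay at different distances from WT. Relative to the WT mean, taken on the log2 scale, the median level of the 48 genes was 4.88-fold for D3TA-1, 2.22-fold for D3TA-2 and 1.58-fold for D3TA-3. It was 1.08-fold for WT-1, 0.885-fold for WT-2 and 1.11-fold for WT-3. All 48 genes lay above the WT mean in D3TA-1, 46 in D3TA-2 (all but Cenpp and Pttg1) and 45 in D3TA-3 (all but Bub3, Birc5 and Pttg1). D3TA-1 was the highest of the 6 libraries for 47 of the 48 genes, where 26.9% of all genes tested had their highest value there. For 42 of the 48, D3TA-1 lay above D3TA-2 and D3TA-2 above D3TA-3, where 25.7% of all genes had this order. WT-2 was the lowest library for 22 of the 48, where 22.4% of all genes had their lowest value there. WT-3 was the lowest for 15. Every WT library was exceeded by D3TA-1 in 47 genes, by D3TA-2 in 44 and by D3TA-3 in 34. For the counts above the WT mean, for WT-3 and for these last counts the share over all genes was not computed.

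**Figure D1:**
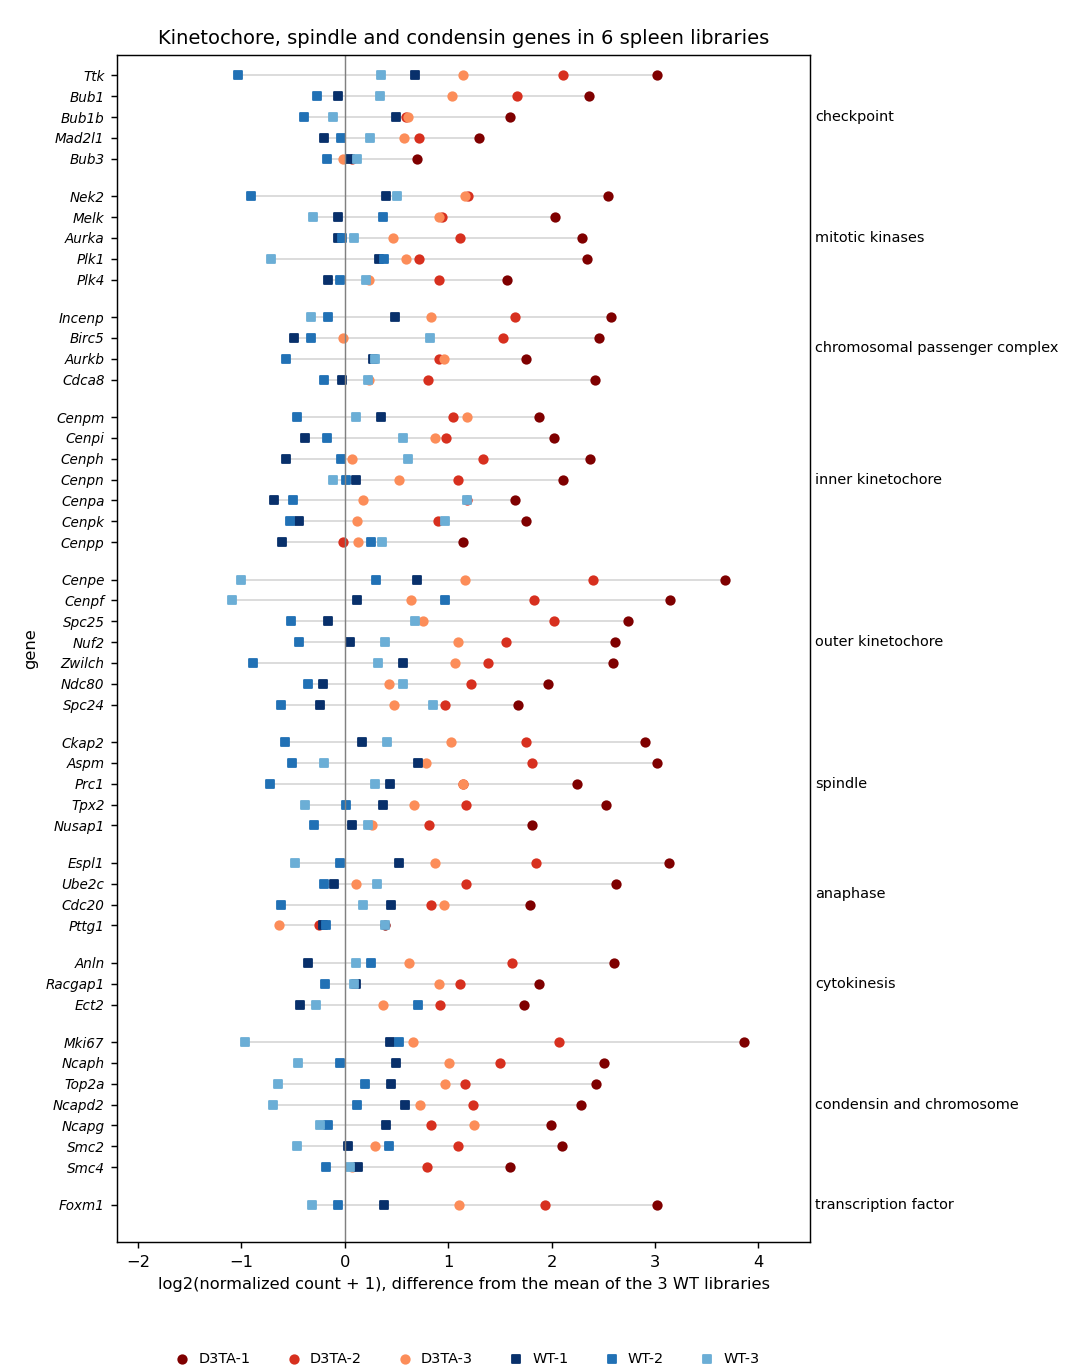
Each row is a gene, grouped by complex, and each point a library. The horizontal axis gives log2(normalized count + 1) minus the mean of the 3 WT libraries. D3TA-1 lies farthest right in 47 of 48 rows, and the 3 D3TA points lie right of all WT points in 34.

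The libraries held 14944622 to 19456838 reads assigned to genes. The hemoglobin share of reads was 6.39% to 6.75% for D3TA-1, D3TA-2 and WT-3 and 1.40% to 1.91% for the rest. The Y-linked gene Ddx3y stood at 1116 in D3TA-3 and 1162 in WT-1, at 20.1 in WT-2 and at 0 elsewhere. The number of genes at 0 was 8449 in WT-2 and lay between 3193 and 5170 elsewhere. The mean difference of the 48 genes was 1.65 between the libraries rich in hemoglobin and 0.67 between the others, with 47 of 48 above 0 in each. Over all genes tested these means were 0.10 and 0.16. For the 48 genes it was 0.54 between D3TA-3 and WT-1, with 45 above 0, and 1.76 between the other 4 libraries, with 47 above 0. In each of these contrasts but the last, at least 1 group is a single library. The share of all genes above 0 was not computed within these contrasts. Markers of B cells (Cd79a), T cells (Cd3d) and red pulp macrophages (Vcam1) were present in every library: Cd3d was lowest at 539.8 in D3TA-1, Cd79a at 2766 in D3TA-1 and Vcam1 at 5610.3 in D3TA-1.

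The promoters of the genes share short motifs. Windows from 250 bases before to 50 after the annotated start were taken from RefSeq (GRCm38.p6), which supplied 46 windows for 41 of the 48 genes; windows of the same gene may overlap. The cell cycle genes homology region, the CHR element bound by the DREAM and B-MYB complexes, was searched as TTTGAA and TTTAAA, and the NF-Y element as CCAAT, each on both strands. A CHR motif stood in 31 of the 46 windows (67.4%), where 27.6% of 32851 windows of all genes held it. CCAAT stood in 35 (76.1%), where 37.4% of all windows held it, and both stood in 27 (58.7%), against 10.7% of all. The E2F-type motifs TTGGCGC and TTCGCGC stood in 5 windows (10.9%), against 3.89% of all, and the forkhead-type motif TAAACA in 5 (10.9%), against 13.4% of all. Letters of TTTAAA and TAAACA, and of TTTGAA and ATTGG, can overlap. The median GC content was 58.8% in the 46 windows and 52.7% in all. Within the 41 genes, the log2 difference had a median of 1.31 in the 28 with a CHR motif and 1.29 in the 13 without. It was 1.33 in the 30 with CCAAT and 1.21 in the 11 without.

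The windows below belong to the gene with the smallest p of each of 7 complexes, as far as RefSeq supplied one, followed by the genes with the largest difference (Cenpe) and the lowest (Pttg1), which were added after their values were seen. They are shown to compare where the motifs lie, and capitals mark CHR and CCAAT matches on either strand. Start and end are on GRCm38.p6 and each sequence reads 5′ to 3′ on the strand of the gene.
Bub1 (chr2:127831810-127832109, minus strand): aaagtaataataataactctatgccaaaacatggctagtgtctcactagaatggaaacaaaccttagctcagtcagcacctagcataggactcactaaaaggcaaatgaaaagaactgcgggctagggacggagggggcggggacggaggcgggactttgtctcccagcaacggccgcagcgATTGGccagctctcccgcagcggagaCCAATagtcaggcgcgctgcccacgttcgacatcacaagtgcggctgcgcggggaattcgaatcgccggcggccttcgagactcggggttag
Nek2 (chr1:191821223-191821522, plus strand): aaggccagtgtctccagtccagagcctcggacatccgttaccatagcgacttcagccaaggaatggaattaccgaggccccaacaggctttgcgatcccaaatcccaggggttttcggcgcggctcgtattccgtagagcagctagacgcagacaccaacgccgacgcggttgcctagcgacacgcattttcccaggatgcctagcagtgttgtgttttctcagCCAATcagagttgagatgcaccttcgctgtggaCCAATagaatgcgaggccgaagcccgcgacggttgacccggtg
Cdca8 (chr4:124936868-124937167, minus strand): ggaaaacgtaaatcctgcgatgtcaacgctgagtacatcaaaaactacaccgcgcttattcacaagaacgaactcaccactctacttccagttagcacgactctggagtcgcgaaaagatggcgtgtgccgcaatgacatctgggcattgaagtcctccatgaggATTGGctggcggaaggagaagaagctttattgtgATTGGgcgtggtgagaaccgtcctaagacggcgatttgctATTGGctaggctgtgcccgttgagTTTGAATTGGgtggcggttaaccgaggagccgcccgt
Cenpm (chr15:82244287-82244586, minus strand): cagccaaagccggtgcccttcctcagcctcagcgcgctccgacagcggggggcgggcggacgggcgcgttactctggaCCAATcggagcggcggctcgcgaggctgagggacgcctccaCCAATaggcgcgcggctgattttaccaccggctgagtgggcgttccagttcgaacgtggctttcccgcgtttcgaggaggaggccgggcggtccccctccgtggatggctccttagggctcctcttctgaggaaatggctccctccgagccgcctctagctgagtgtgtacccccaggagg
Nuf2 (chr1:169531415-169531714, minus strand): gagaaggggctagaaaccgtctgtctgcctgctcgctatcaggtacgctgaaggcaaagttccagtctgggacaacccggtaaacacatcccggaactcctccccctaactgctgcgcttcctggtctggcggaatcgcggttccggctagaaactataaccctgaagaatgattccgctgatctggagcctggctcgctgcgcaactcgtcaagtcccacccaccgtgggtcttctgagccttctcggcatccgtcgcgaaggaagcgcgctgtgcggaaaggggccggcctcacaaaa
Espl1 (chr15:102296043-102296342, plus strand): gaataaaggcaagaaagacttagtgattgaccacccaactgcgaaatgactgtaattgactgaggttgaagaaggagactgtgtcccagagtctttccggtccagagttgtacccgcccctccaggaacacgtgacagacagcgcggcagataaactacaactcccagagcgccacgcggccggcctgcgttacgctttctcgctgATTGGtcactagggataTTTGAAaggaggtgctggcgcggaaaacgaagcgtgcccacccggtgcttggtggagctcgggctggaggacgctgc
Ncaph (chr2:127133905-127134204, minus strand): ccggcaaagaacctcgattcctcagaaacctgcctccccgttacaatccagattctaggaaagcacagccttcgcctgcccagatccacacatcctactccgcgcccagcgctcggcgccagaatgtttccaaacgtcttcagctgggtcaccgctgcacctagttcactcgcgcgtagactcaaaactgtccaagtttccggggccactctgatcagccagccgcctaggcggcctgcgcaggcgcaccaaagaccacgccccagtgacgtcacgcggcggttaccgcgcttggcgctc
Cenpe (chr3:135212313-135212612, plus strand): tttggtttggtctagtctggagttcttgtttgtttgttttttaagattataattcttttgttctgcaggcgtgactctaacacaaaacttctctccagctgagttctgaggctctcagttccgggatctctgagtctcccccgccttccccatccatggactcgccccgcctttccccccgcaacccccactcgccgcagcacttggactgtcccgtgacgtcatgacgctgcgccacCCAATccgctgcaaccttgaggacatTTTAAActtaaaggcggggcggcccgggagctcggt
Pttg1 (chr11:43425932-43426231, minus strand): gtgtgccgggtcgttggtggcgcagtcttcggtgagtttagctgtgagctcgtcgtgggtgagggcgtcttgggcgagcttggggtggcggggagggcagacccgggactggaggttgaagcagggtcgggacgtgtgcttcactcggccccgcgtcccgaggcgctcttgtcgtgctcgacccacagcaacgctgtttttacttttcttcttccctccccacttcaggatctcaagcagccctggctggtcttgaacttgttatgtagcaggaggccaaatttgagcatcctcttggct
Counted from the start as position 1, with position -1 before it, the Espl1 window has CCAAT (as ATTGG) at -44 to -40 and TTTGAA at -27 to -22. The Cenpe window has CCAAT at -12 to -8 and TTTAAA at 15 to 20. Cdca8 has 4 CCAAT matches, at -85, -51, -11 and 19, the last sharing letters with TTTGAA at 14 to 19. Bub1, Nek2 and Cenpm have 2 CCAAT matches each and no CHR match. The windows of Nuf2, Ncaph and Pttg1 hold neither, Nuf2 has TAAACA at -170 to -165 and Ncaph TTGGCGC at 42 to 48. The Pttg1 window lies wholly inside the gene as GENCODE places it (chr11:43420250-43426251). Sequence before that outer start is therefore not covered, and the same holds for the windows of Cdca8 and Cenpm. The difference of Nuf2 (1.75) and Ncaph (1.67) was above the median of the 48, but both windows were printed because of the small p of their genes. The part of the motifs in the differences was not tested.

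The spindle checkpoint genes lay above 0 in all 5 cases, and 4 were higher at an unadjusted p under 0.05. Bub1, the kinase that recruits checkpoint proteins to the kinetochore (ENSMUSG00000027379, chr2:127801122-127831865, GRCm38), stood at normalized counts of 1056, 649 and 420.1 in D3TA mice 1, 2 and 3, against 195, 169 and 259 in WT mice 1, 2 and 3. All D3TA values lay above all WT values, and the log2 difference was 1.69 ± 0.39 (SE), 3.22-fold, with a limma adjusted p of 0.217 over all genes. Ttk, the MPS1 kinase that starts the checkpoint signal, stood at 497, 264 and 135 in D3TA mice 1, 2 and 3, against 97.4, 29.1 and 77.3 in WT mice 1, 2 and 3. Its values were low and did not overlap, with a difference of 2.09 ± 0.59 (SE). Bub1b, which encodes BUBR1 of the mitotic checkpoint complex, had 1432, 714 and 726 in D3TA mice 1, 2 and 3, against 671, 361 and 439 in WT mice 1, 2 and 3, and the lowest D3TA value was 1.06 times the highest WT value. Mad2l1, which encodes the MAD2 protein that captures CDC20, averaged 1364 ± 384 across D3TA mice and 736 ± 116 across WT mice (mean ± SD, 3 mice per group). Bub3, which brings BUB1 and BUBR1 to kinetochores, stood at 3403, 2199.9 and 2067 in D3TA mice 1, 2 and 3, against 2165, 1861 and 2265 in WT mice 1, 2 and 3. Its groups overlapped and its difference was 0.25 ± 0.29 (SE), the smallest of the 5.

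All 5 mitotic kinases lay above 0, without overlap between groups and at an unadjusted p under 0.05. Nek2, a centrosome kinase, had 1882, 736 and 724 in D3TA mice 1, 2 and 3, against 425, 171 and 459 in WT mice 1, 2 and 3, a difference of 1.63 ± 0.48 (SE). Melk, a kinase of proliferating progenitors, had 846, 396 and 389 in D3TA mice 1, 2 and 3, against 197, 266 and 166 in WT mice 1, 2 and 3, a difference of 1.30 ± 0.39 (SE). Aurka, the Aurora A kinase of spindle poles, was 2.45-fold higher and Plk1, the Polo kinase of mitotic entry, 2.33-fold. For Plk1 the values were 2449.6, 792 and 725 in D3TA mice 1, 2 and 3, against 607, 626 and 293 in WT mice 1, 2 and 3, so D3TA-1 stood far above the other libraries. Plk4, which starts centriole duplication, had the largest p of the 5, with 1134, 719 and 449 in D3TA mice 1, 2 and 3, against 341, 369 and 441 in WT mice 1, 2 and 3. Its D3TA-3 value was 1.02 times the highest WT value.

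The chromosomal passenger complex, which corrects wrong attachments and guides cytokinesis, lay above 0 in all 4 subunits, each at an unadjusted p under 0.05. Incenp, its scaffold, had 3396, 1789 and 1012 in D3TA mice 1, 2 and 3, against 799.5, 507 and 455 in WT mice 1, 2 and 3, with a difference of 1.68 ± 0.43 (SE) and a limma adjusted p of 0.246. Aurkb, the Aurora B kinase, stood at 1504, 838 and 868 in D3TA mice 1, 2 and 3, against 539, 299.9 and 545 in WT mice 1, 2 and 3, so D3TA-2 and D3TA-3 were alike. Cdca8, which encodes borealin, had 4109, 1342 and 902 in D3TA mice 1, 2 and 3, against 754, 668 and 893 in WT mice 1, 2 and 3, and D3TA-3 lay barely above WT-3. Birc5, which encodes survivin, had 7712, 4043 and 1386 in D3TA mice 1, 2 and 3, against 992, 1116 and 2476 in WT mice 1, 2 and 3. Its D3TA-3 value lay inside the WT range, below WT-3, and its difference was 1.33 ± 0.57 (SE). The 4 subunits thus differed in how far D3TA-3 stood from WT.

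The 7 inner kinetochore genes all lay above 0, 4 at an unadjusted p under 0.05 and 3 without overlap, with a median difference of 1.24. Cenpm, of the constitutive centromere-associated network, had 547, 308 and 338 in D3TA mice 1, 2 and 3, against 189, 107 and 160.4 in WT mice 1, 2 and 3, with a difference of 1.37 ± 0.38 (SE). Cenpi, of the same network, stood at 455, 220.2 and 204 in D3TA mice 1, 2 and 3, against 85.0, 98.5 and 164 in WT mice 1, 2 and 3. Both kept the groups apart. Cenpn, which binds the CENP-A nucleosome, was 2.37-fold higher without overlap and Cenph 2.39-fold with overlap. Cenpa, the histone variant itself, had 4493, 3248 and 1622 in D3TA mice 1, 2 and 3, against 892, 1012 and 3246 in WT mice 1, 2 and 3. WT-3 was level with D3TA-2, and the unadjusted p was 0.0817. Cenpk had 521, 288 and 167 in D3TA mice 1, 2 and 3, against 113, 106 and 302 in WT mice 1, 2 and 3, where WT-3 lay above D3TA-2 and D3TA-3. Cenpp had 249.6, 111 and 124 in D3TA mice 1, 2 and 3, against 73.6, 134 and 145 in WT mice 1, 2 and 3, a difference of 0.42 ± 0.47 (SE) and overlapping groups. An exonic stretch of Cenpp (12.3% of its exon length) is shared with the opposite-strand gene Ippk, and no strand-marking step is described, so its reads are less certain.

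The outer kinetochore genes had the largest median among the complexes with several members (1.75, 3.38-fold). All 7 were higher at an unadjusted p under 0.05 and 4 did not overlap. Cenpe, the kinesin motor that moves chromosomes to the spindle equator (ENSMUSG00000045328, chr3:135212537-135273611, GRCm38), had 2531, 1042 and 443 in D3TA mice 1, 2 and 3, against 321, 244 and 97.6 in WT mice 1, 2 and 3. Its difference of 2.41 ± 0.62 (SE), 5.32-fold, was the largest of the 48, with a limma adjusted p of 0.246. That rank depended on WT-3. Without WT-3 the difference of Cenpe was 1.91, below Ttk (2.26), Spc25 (2.18), Ckap2 (2.10) and Nuf2 (1.95). The NDC80 complex, the rod that holds microtubules, has 4 subunits. Nuf2 had 2212, 1059.5 and 768 in D3TA mice 1, 2 and 3, against 373, 265 and 471 in WT mice 1, 2 and 3, with no overlap and a difference of 1.75 ± 0.41 (SE). Spc25 stood at 1927, 1169.6 and 485 in D3TA mice 1, 2 and 3, against 256, 200.3 and 461 in WT mice 1, 2 and 3, where D3TA-3 was 1.05 times WT-3. Ndc80 had 1120.3, 671 and 386 in D3TA mice 1, 2 and 3, against 247, 224 and 424 in WT mice 1, 2 and 3 and a difference of 1.21 ± 0.43 (SE), and WT-3 lay above D3TA-3. Spc24, with the largest p of the 7, had 1361, 831 and 591 in D3TA mice 1, 2 and 3, against 360.1, 276 and 768 in WT mice 1, 2 and 3, and WT-3 lay above D3TA-3 here too. Zwilch, of the RZZ complex that recruits dynein and checkpoint proteins, was 3.20-fold higher without overlap. Cenpf, a long protein of the outer corona, had 2689, 1079.7 and 475 in D3TA mice 1, 2 and 3, against 331, 594 and 142 in WT mice 1, 2 and 3, and WT-2 lay above D3TA-3.

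All 5 spindle genes were higher, each without overlap and at an unadjusted p under 0.05, with a median difference of 1.51. Ckap2, a microtubule-associated protein of the spindle, had 1322, 598 and 359.6 in D3TA mice 1, 2 and 3, against 199, 118 and 235 in WT mice 1, 2 and 3, a difference of 1.89 ± 0.48 (SE). Prc1, which bundles microtubules of the midzone, stood at 1039, 486 and 483 in D3TA mice 1, 2 and 3, against 296, 132 and 268 in WT mice 1, 2 and 3. D3TA-2 and D3TA-3 were level in Prc1, but 11.1% of its exon length is shared with the opposite-strand gene Rccd1. Aspm, a spindle pole protein, was 3.66-fold higher and Tpx2, which activates Aurora A on the spindle, 2.74-fold. Nusap1, a microtubule bundler near chromosomes, had the largest p of the 5, with 2905, 1451 and 993 in D3TA mice 1, 2 and 3, against 865, 673 and 966 in WT mice 1, 2 and 3. Its D3TA-3 value was 1.03 times WT-3.

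The anaphase genes split. Espl1, the protease separase, was 3.87-fold higher, with 1609.8, 662 and 334 in D3TA mice 1, 2 and 3, against 263, 177 and 130.5 in WT mice 1, 2 and 3, no overlap and a difference of 1.95 ± 0.53 (SE). Cdc20, the activator of the anaphase-promoting complex, had 2318, 1195 and 1298 in D3TA mice 1, 2 and 3, against 910.3, 434 and 754 in WT mice 1, 2 and 3, a difference of 1.20 ± 0.37 (SE). Ube2c, the ubiquitin-conjugating enzyme of that complex, had 10362, 3788 and 1807 in D3TA mice 1, 2 and 3, against 1563, 1462 and 2083 in WT mice 1, 2 and 3. D3TA-1 stood far above all others and D3TA-3 lay below WT-3, and 22.8% of the exon length of Ube2c is shared with the opposite-strand gene Tnnc2. Pttg1, which encodes securin, the inhibitor of separase, was the exception among the 48. It had 918, 589 and 452 in D3TA mice 1, 2 and 3, against 607, 620.0 and 920.1 in WT mice 1, 2 and 3, a difference of -0.17 ± 0.34 (SE) with an unadjusted p of 0.635. The lowest values were those of D3TA-2 and D3TA-3, and D3TA-1 was level with WT-3. Without D3TA-3 the difference of Pttg1 was 0.066, and without WT-3 it was 0.028.

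All 3 cytokinesis genes were higher at an unadjusted p under 0.05. Racgap1, a subunit of centralspindlin, had 3362, 1979.7 and 1719 in D3TA mice 1, 2 and 3, against 985, 800.2 and 970.3 in WT mice 1, 2 and 3. Its lowest D3TA value was 1.75 times the highest WT value, the widest gap of the 48, and its difference was 1.30 ± 0.32 (SE) with a limma adjusted p of 0.232. Anln, which encodes the contractile ring protein anillin, stood at 1291, 650.5 and 325 in D3TA mice 1, 2 and 3, against 164, 252 and 227 in WT mice 1, 2 and 3, a difference of 1.62 ± 0.47 (SE). Ect2, the exchange factor that activates RhoA, had 1373, 783 and 532 in D3TA mice 1, 2 and 3, against 306, 674 and 339 in WT mice 1, 2 and 3. WT-2 was above D3TA-3 in Ect2, so its groups overlapped.

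The condensin and chromosome genes lay above 0 in all 7 cases, 6 at an unadjusted p under 0.05. Among the subunits found only in condensin I, Ncaph, the kleisin, had 1719, 853 and 607 in D3TA mice 1, 2 and 3, against 424, 292 and 219 in WT mice 1, 2 and 3, a difference of 1.67 ± 0.42 (SE). Ncapg, a HEAT-repeat subunit, stood at 937, 419 and 559 in D3TA mice 1, 2 and 3, against 310.4, 210.4 and 198 in WT mice 1, 2 and 3, and 13.4% of its exon length is shared with the opposite-strand gene Lcorl. Ncapd2, the other HEAT-repeat subunit, was 2.67-fold higher. None of these 3 overlapped between groups. The ATPase subunits shared by both condensins overlapped: Smc2 was 2.24-fold higher, and Smc4 had 6741, 3863 and 2329 in D3TA mice 1, 2 and 3, against 2419.6, 1965 and 2306 in WT mice 1, 2 and 3, a difference of 0.82 ± 0.38 (SE) with an unadjusted p of 0.0542. Top2a, the topoisomerase that untangles sister chromatids, was 2.87-fold higher without overlap. Mki67, which encodes the Ki-67 antigen of the chromosome surface, had 31756, 9171 and 3459 in D3TA mice 1, 2 and 3, against 2965, 3132 and 1122 in WT mice 1, 2 and 3. It ran over the widest range of the 48, and D3TA-3 lay close above WT-2. In all of these genes but Smc4, WT-3 was the lowest library.

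Foxm1, the forkhead factor that activates G2 and M phase genes (ENSMUSG00000001517, chr6:128362967-128376146, GRCm38), had 1372, 647 and 364 in D3TA mice 1, 2 and 3, against 219.7, 161 and 135 in WT mice 1, 2 and 3. The groups did not overlap and the lowest D3TA value was 1.66 times the highest WT value. The difference was 2.02 ± 0.47 (SE), 4.05-fold, with a limma adjusted p of 0.217, and DESeq2 gave an adjusted p of 0.00104. Ranked by p among 15564 genes, Bub1 was number 90 and Foxm1 number 95, and the next of the 48 was Nuf2 at 105.

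Per kilobase of annotated exon, Ube2c was the most abundant of the 48, at 2046 per kb in D3TA and 655 per kb in WT on average. In D3TA it was followed by Mki67, at 1471 per kb in D3TA and 239 per kb in WT, and Birc5, at 1288 per kb in D3TA and 449 per kb in WT. In WT it was followed by Birc5 and by Smc4, at 827 per kb in D3TA and 428 per kb in WT, while Mki67 stood eighth. The lowest level was 51.6 per kb in D3TA (Cenpi) and 13.8 per kb in WT (Ttk). Within the NDC80 complex, Spc25 stood at 374 per kb in D3TA and 95.9 per kb in WT and Ndc80 at 112 per kb in D3TA and 46.0 per kb in WT. Exon length is the union of all annotated exons of a gene, so a gene with rare long isoforms is understated.

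Other genes of mitosis and replication were listed beside the 48, and 0 of them passed the limma adjusted threshold. Over all genes tested, 54.5% lay above 0 and 6.08% were higher at an unadjusted limma p under 0.05. DESeq2 called 1.83% of genes higher. Of 13 further inner kinetochore and CENP-A loading genes 12 lay above 0 (all but Cenpx) and 6 were higher at an unadjusted p under 0.05, with a median of 0.99. Hjurp, the chaperone that loads CENP-A, had the smallest p, with 3849, 2362 and 1783 in D3TA mice 1, 2 and 3, against 1074, 668 and 734 in WT mice 1, 2 and 3 and a difference of 1.65 ± 0.35 (SE). Oip5, a factor needed for this loading, was 3.92-fold higher. Of 16 further outer kinetochore and checkpoint genes all lay above 0 and 11 were higher at an unadjusted p under 0.05. Ska3, of the SKA complex, had 555, 393 and 217 in D3TA mice 1, 2 and 3, against 103, 88.4 and 98.6 in WT mice 1, 2 and 3 and a difference of 1.90 ± 0.41 (SE). The others called by DESeq2 were Knl1, Kntc1, Ska1, Haspin and Bora, between 2.60-fold and 4.23-fold higher in the limma fit. Of 11 further spindle and midbody genes all lay above 0 and 9 were higher at an unadjusted p under 0.05. Fam83d had the smallest p, with 187, 149 and 136 in D3TA mice 1, 2 and 3, against 41.1, 29.1 and 59.9 in WT mice 1, 2 and 3, and Ckap2l, Tacc3, Hmmr, Cit and Spag5 were also called by DESeq2, between 2.48-fold and 3.23-fold higher.

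The remaining lists had lower medians, between 0.31 and 0.89. Their counts stand beside the same shares over all genes, 54.5% above 0 and 6.08% higher at an unadjusted limma p under 0.05. The 3 subunits found only in condensin II had a median of 0.89, with Ncapd3 at 1.07 ± 0.45 (SE). Of 11 cohesin genes all lay above 0, with a median of 0.51, and 3 were higher at an unadjusted p under 0.05. Cdca5, which encodes sororin, the protector of cohesin, was the leading cohesin gene at 1.37 ± 0.38 (SE). Of 17 genes of the anaphase-promoting complex and its regulators 10 lay above 0, near the share of all genes, with a median of 0.31. Of the 17, 0 passed an unadjusted limma p under 0.05 (1 in edgeR, 0 at the adjusted threshold of limma, edgeR or DESeq2). Fbxo5, the inhibitor EMI1, had the smallest p of these, with 2394, 1295 and 469 in D3TA mice 1, 2 and 3, against 402, 530.5 and 655 in WT mice 1, 2 and 3. Of 22 genes of DNA replication all lay above 0, with a median of 0.89, 11 at an unadjusted p under 0.05. Pola1, the catalytic subunit of DNA polymerase alpha, was at 1.25 ± 0.36 (SE), and the licensing factors Cdc6 and Orc1, both called by DESeq2, at 1.49 ± 0.47 (SE) and 1.62 ± 0.58 (SE). Differences between these lists were not tested.

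**Figure D2:**
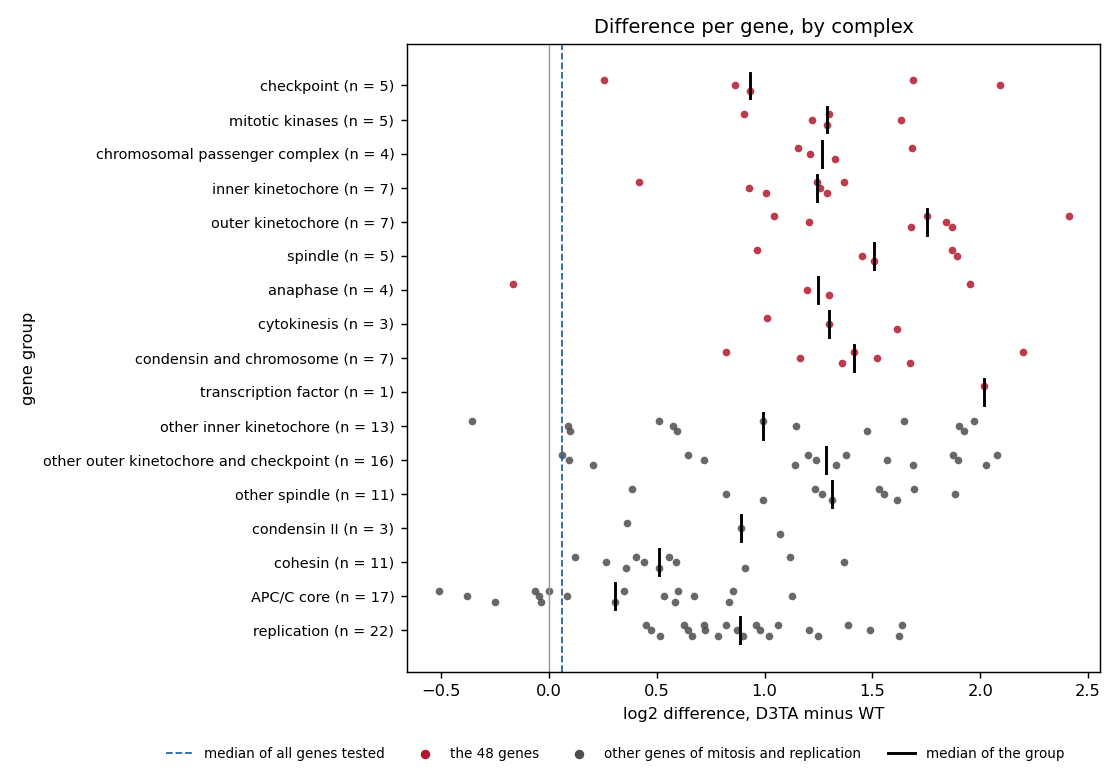
Each point is a gene, placed by its log2 difference (D3TA minus WT). Rows are complexes, with the 48 genes in red and other genes of mitosis and replication in grey; black bars are medians and the dashed line is the median of all genes tested (0.06). The outer kinetochore has the highest median of the rows with several genes (1.75), and the anaphase-promoting complex the lowest (0.31).

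Markers of other cell types differed between the same libraries. Their counts below stand beside 6.08% of all genes tested higher and 3.83% lower at an unadjusted limma p under 0.05. The mean log2(normalized count + 1) of the 48 was 10.85, 9.82 and 9.26 in D3TA mice 1, 2 and 3, against 8.73, 8.46 and 8.69 in WT mice 1, 2 and 3. The same mean over 8 neutrophil precursor genes was 11.71, 10.87 and 9.18 in D3TA mice 1, 2 and 3, against 6.84, 6.44 and 7.83 in WT mice 1, 2 and 3. All 8 were higher at an unadjusted p under 0.05, their summed level was 7734 to 49982 in D3TA and 1226 to 2188 in WT, and Cebpe was at 0 in WT-2. Prtn3, a protease of primary granules, averaged 9173 ± 7740.2 across D3TA mice and 527 ± 189.6 across WT mice, and Mpo, the myeloperoxidase of the same granules, 8788 ± 6539 across D3TA mice and 329 ± 7.52 across WT mice (mean ± SD, 3 mice per group). Over 8 erythroblast genes the mean was 13.03, 11.57 and 9.94 in D3TA mice 1, 2 and 3, against 10.30, 10.10 and 10.53 in WT mice 1, 2 and 3. D3TA-3 thus lay below every WT library in erythroblast genes and above every WT library in the mitotic and neutrophil precursor genes. The summed erythroblast level was 12613 to 85058 in D3TA and 15224 to 21288 in WT, with 2 of 8 genes at an unadjusted p under 0.05, Ermap and Sptb. Tfrc, the transferrin receptor, averaged 14476 ± 12424 across D3TA mice and 5085 ± 2343 across WT mice, and Alas2, the first enzyme of heme synthesis in red cells, 9336 ± 5679.6 across D3TA mice and 6479.8 ± 3526 across WT mice (mean ± SD, 3 mice per group).

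Germinal centre B cell markers ran differently. Their mean over 6 genes was 5.70, 7.65 and 8.53 in D3TA mice 1, 2 and 3, against 7.82, 7.63 and 7.17 in WT mice 1, 2 and 3, lowest in D3TA-1 and highest in D3TA-3, with summed levels of 788 to 4495 in D3TA and 1128 to 1603 in WT. Gcsam had 164, 340.4 and 1692 in D3TA mice 1, 2 and 3, against 272, 203 and 321 in WT mice 1, 2 and 3, and Bcl6 averaged 555 ± 149 across D3TA mice and 533 ± 149 across WT mice (mean ± SD, 3 mice per group). Of the 6 genes 1 passed an unadjusted p under 0.05: Rgs13, a regulator of G protein signalling, was lower, with 0, 47.5 and 9.51 in D3TA mice 1, 2 and 3, against 153, 145 and 154 in WT mice 1, 2 and 3 and no overlap. All 7 B cell markers were lower at an unadjusted p under 0.05. Cd79a, of the B cell receptor, averaged 5685 ± 2557 across D3TA mice and 19901 ± 2939 across WT mice, and its partner Cd79b 5392 ± 2998 across D3TA mice and 16265 ± 1650.0 across WT mice (mean ± SD, 3 mice per group). Their summed level was 10144 to 30901 in D3TA and 59191 to 71088 in WT. The part of these cells in the mitotic transcripts was not tested.

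The remaining marker lists were late neutrophil genes, of which 8 of 8 were higher at an unadjusted p under 0.05 (summed level 28255 to 188260.0 in D3TA and 4487 to 9075 in WT, Mmp8 at 0 in WT-2), and megakaryocyte genes, of which 1 of 6 was (summed level 3583 to 9987 in D3TA and 3265 to 4282 in WT). Ngp, of secondary granules, averaged 37016 ± 28559 across D3TA mice and 1865 ± 508 across WT mice, and Camp, of the same granules, 35108 ± 22655 across D3TA mice and 2388 ± 1656 across WT mice (mean ± SD, 3 mice per group). Pf4, a platelet chemokine, averaged 2081 ± 768 across D3TA mice and 1256 ± 530.3 across WT mice, and Itga2b, a platelet integrin, 1824 ± 1043 across D3TA mice and 989 ± 87.8 across WT mice (mean ± SD, 3 mice per group). Of 6 progenitor genes 1 was higher, Myb, a factor of cycling progenitors, at 1869, 861 and 375 in D3TA mice 1, 2 and 3, against 288, 481 and 353 in WT mice 1, 2 and 3, and the summed level was 2126 to 3676 in D3TA and 1448 to 2505 in WT. Of 5 plasma cell genes 2 were lower (summed level 28016 to 63391 in D3TA and 75580.1 to 89575 in WT), of 7 T cell genes 2 (summed level 3115 to 10951 in D3TA and 9371 to 14201 in WT), and of 6 red pulp macrophage genes 1 (summed level 14164 to 21221 in D3TA and 21559 to 43804 in WT). Jchain averaged 43379 ± 17276 across D3TA mice and 76921 ± 7814 across WT mice, Cd3d 1819 ± 1117 across D3TA mice and 2985 ± 732 across WT mice and Hmox1 4412 ± 872 across D3TA mice and 9260.2 ± 5473 across WT mice (mean ± SD, 3 mice per group).

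**Figure D3:**
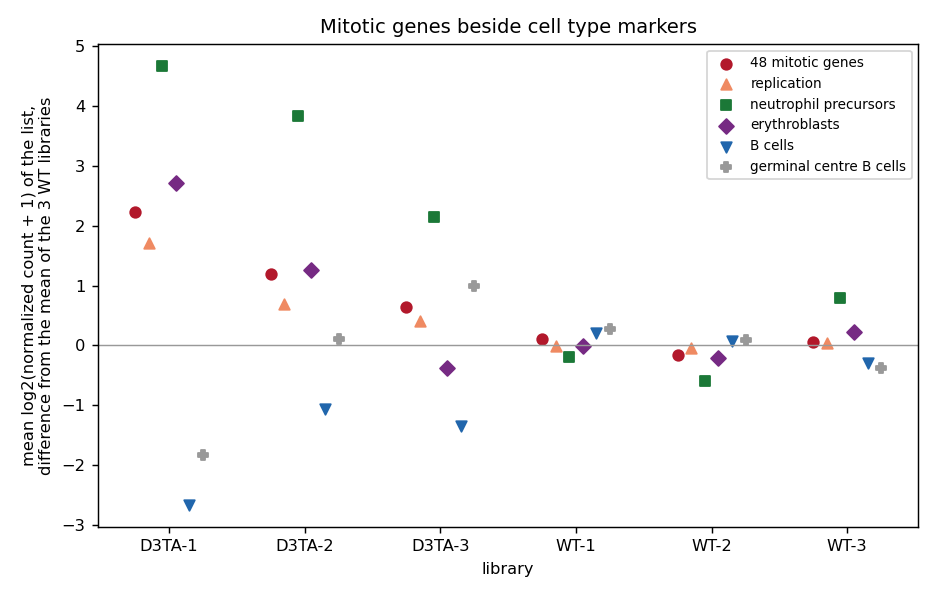
Each point is the mean log2(normalized count + 1) of a gene list in a library, minus its mean over the 3 WT libraries. The 48 mitotic genes and the neutrophil precursor genes are above every WT library in all 3 D3TA libraries, while erythroblast genes are below WT in D3TA-3 and germinal centre genes are below WT in D3TA-1.

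Exon length moved with the WT-3 library. WT-3 minus the mean of WT-1 and WT-2 had a median of 0.10 in the 24 mitotic genes with at least 5000 bases of exon and 0.45 in the 24 shorter ones. Over all genes tested with a known length it was -0.31 in 5895 long genes and 0.31 in 9645 shorter ones, and Spearman's rho with length was -0.37 over the 48 and -0.39 over all 15540. These are correlations across genes, which are not independent replicates and share the same libraries. Cenpf, Cenpe and Mki67, which span 15433, 8620 and 10061 bases of exon, were lowest in WT-3 at 142, 97.6 and 1122.1 normalized counts. WT-3 was the highest WT library for 10 of the 14 genes whose groups overlapped, Birc5, Cenpa and Spc24 among them. WT-2 was for 3 and WT-1 for 1. A high WT value itself favours overlap, and the share over all genes was not computed. The mean difference was 1.39 for the long and 1.31 for the short mitotic genes, and 1.36 and 1.41 without WT-3. Spearman's rho of length with the difference itself was 0.31 over the 48 and 0.19 over all genes. Without WT-3 it was 0.14 and 0.017. The part of exon length in single genes was not tested.

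**Figure D4:**
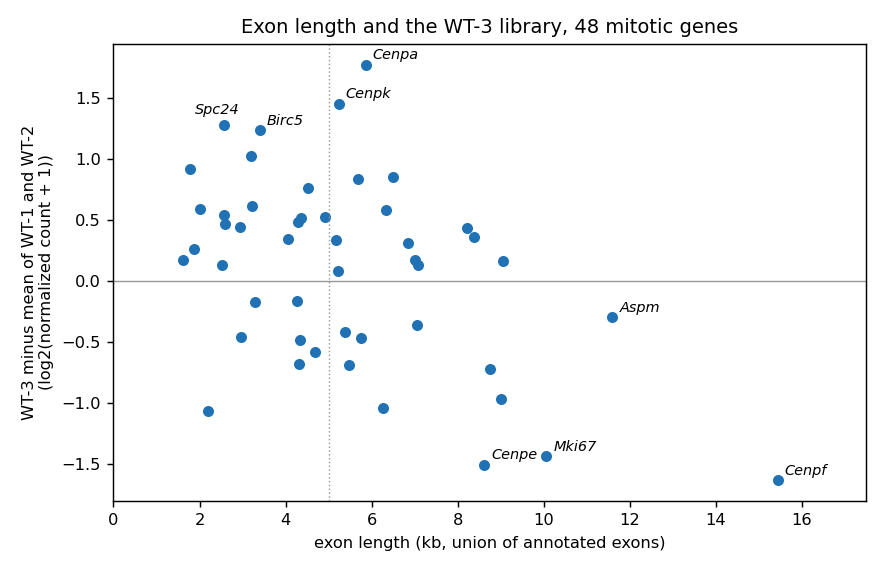
Each point is a mitotic gene. The horizontal axis gives the exon length in kilobases and the vertical axis WT-3 minus the mean of WT-1 and WT-2 in log2(normalized count + 1); the dotted line marks 5 kb. Cenpf, Cenpe and Mki67 lie lowest, and Cenpa and Cenpk highest.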

How the data were processed

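RNA-seq of splenocytes from 3 D3TA and 3 WT mice was used. Per the labels' protocols, polyadenylated RNA was selected on beads and reverse-transcribed from random primers. The tools HISAT2, Trim Galore, FastQC, CASAVA and DESeq2 and the build mm10 appear in the submitters' processing notes, with no version; how reads were counted is not given in the sources used here. The deposited values are a signal, namely read counts scaled by a single factor in each library: 100% of 149436 values were whole multiples of their library's step within 0.001, and these multiples served as recovered reads. The 3 reads taken as a count floor correspond to 2.59 to 3.36 normalized counts, which covers counting error only. Nothing says whether the mice shared litters or batches.

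Genes with at least 10 normalized counts in at least 3 libraries (15564) were fitted as log2(value + 1) with limma 3.58.1 (trend, robust; genotype as factor), 2-sided, Benjamini-Hochberg over all genes at 0.05. Folds are 2 raised to the log2 difference and understate low genes. Symbols came from GENCODE M21 (24860 of 24906 identifiers). Alternatives were other scalings, filters and pseudocounts, edgeR 4.0.16, DESeq2 1.42.0, limma-voom, left-out libraries and added terms; the split by exon length was chosen after seeing the data. The fit was also run on simulated counts, whose spread was set and not taken from these mice. That run therefore gives no error rate for the results here. R 4.3.3, Python 3.11.15 and matplotlib 3.10.9 were used.

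The 48 genes and all lists were chosen with earlier results of these data known. Named in full were, per complex, the 2 genes with the smallest p and the 1 with the largest, any gene below 0 and the 3 most abundant per kilobase; the other values were added to account for every gene. Hbb-b1, Hbb-b2 and Gp1bb of the marker lists matched no symbol. The values of 1 further gene that the naming rule selects are not reported here. Of the hemoglobin list, 4 genes were tested and 0 had an unadjusted p under 0.05 in limma or were called by edgeR or DESeq2.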

Additional observations from a re-analysis of the deposited data

How the results depend on the processing

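The mean log2 difference of the 48 genes stayed above 0 under every alternative run. It was 0.67 within the libraries of low hemoglobin share and 1.65 within those of high share, 0.54 between the Y-linked libraries and 1.76 between the other 4, and 0.83 without D3TA-1 and WT-2 together. The count of genes higher at an unadjusted p under 0.05, 42 in limma, was 15 without D3TA-1 and WT-2 together and ran from 26 (without D3TA-1) to 45 (without D3TA-3) when 1 library was left out. Over all genes, 426 of 15186 were higher without D3TA-1 and 1421 of 15172 without D3TA-3. With the other scalings, filters, tools and terms the count among the 48 ran from 33 (term for a high hemoglobin share) to 44. The 44 came by library size only and with a term for Y-linked libraries. Over all genes, 866 of 15564 were higher with the hemoglobin term, 1165 of 15595 by library size and 1020 of 15564 with the Y-linked term. The count at an adjusted p under 0.05, 0 in limma, was 23 in DESeq2 and ran from 0 to 16 (without D3TA-3) when 1 library was left out. Leaving out 1 library cannot lower the count of genes without overlap, 34, and that count then ran from 34 to 44. The share of all genes without overlap was not computed for these fits. By library size only the count was 38. That scaling moved the median of all genes to 0.14. Leave-one-out means ran from 0.92 to 1.71. No single gene passed the adjusted threshold in limma, so none could lose it. Of 960 results for single genes under the alternatives, 39 passed it and 3 reversed in direction: Bub3 without D3TA-1 and WT-2 together (-0.055), Pttg1 without D3TA-3 (0.066) and without WT-3 (0.028). With 1 library left out, Pttg1 ran from -0.44 to 0.066. The cause was not tested.

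The labels do not say that replicate numbers pair the mice. Deviations of libraries with the same number correlated at -0.057, -0.0046 and -0.13, which shows no shared effect but cannot exclude pairing. With the replicate number as a block, 39 of the 48 genes were higher at an unadjusted p under 0.05 and 0 at the adjusted threshold. Over all genes, 932 of 15564 were higher at the unadjusted threshold in this fit. The mean difference of 1.35 cannot change in this fit, because each number holds a D3TA and a WT library. With 3 mice a group and D3TA-1 far from D3TA-3, single genes are estimated with standard errors of 0.29 to 0.70 on the log2 scale. No group held the 4 samples needed for a check of outlying libraries, and the series has 1 contrast.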
